A study of Mus musculus with 6 samples.

Results

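Genomic imprinting leaves a gene active from a single parental copy, because DNA methylation laid down in the egg or the sperm marks the copies differently. Many imprinted genes act on fetal growth. Paternally expressed genes often favour it and maternally expressed genes often restrain it, and several are switched down in tissues after birth. They lie in clusters in which neighbours share a control region. This account follows 9 imprinted growth control genes in cultured vascular smooth muscle cells. They were taken from the count table by symbol, and all 9 of 9 symbols were found among its 44792 genes. In mice, Mest, Plagl1, Ndn, Peg3 and Dlk1 are expressed from the paternal copy. Meg3, Grb10, Cdkn1c and H19 are expressed from the maternal copy, with Grb10 switching to the paternal copy in neurons.

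RNA sequencing covered 6 libraries of primary vascular smooth muscle cells on the C57BL/6 strain. There were 3 libraries of Ncor1-/- cells, from mice with a smooth muscle knockout of Ncor1, and 3 of wild type cells from control littermates. The design text describes a treatment of the isolated cells with 4-hydroxytamoxifen (4-OHT), which induced the deletion. That control cells received it too is implied there and not stated, so an effect of the agent and of the genotype cannot be told apart with certainty. No source used here gives the Cre driver or the age of the mice. The design text speaks of 3 mice and also of 3 technical replicates for each group. The spread behind every p-value is therefore that between the libraries of a group, and it may be technical. Ncor1 encodes a corepressor through which nuclear receptors recruit a histone deacetylase.

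Total counts were 7125538 to 9579490 per knockout library and 7231968 to 9005690 per control library. Ncor1 itself had 99.3, 93.7 and 94.4 CPM in the knockout libraries, against 213, 223 and 230 CPM in the control libraries. Markers of other vessel wall cells differed between the groups. Of 16 endothelial markers 15 were higher and Vwf was lower, and their summed level was 7034 to 7191 CPM in knockout and 2040.3 to 2115.5 CPM in control libraries. Macrophage and leukocyte markers were higher for 13 of 14 tested, Cd14 being the one that did not pass, with sums of 578 to 633 CPM in knockout and 49.2 to 70.1 CPM in control libraries. Of these, Csf1r, Mrc1, Itgam and Aif1 reached the filter on low counts through the knockout libraries alone, and Fcer1g mainly through them. Their calls are counted among the 13 and are therefore not given as support. Among all tested genes, 26.4% were called higher and 26.2% lower. No listed marker was at 0 in all libraries. Of 12 smooth muscle markers 10 were lower, with sums of 4224 to 4439.9 CPM in knockout and 12280 to 12541 CPM in control libraries, so that endothelial markers summed higher than smooth muscle markers in the knockout libraries. Acta2, smooth muscle actin, was at 2609 to 2742 CPM in knockout, against 6584 to 6723 CPM in control libraries, and Myh11, smooth muscle myosin, was 10.2-fold lower. Of 7 tested adventitial fibroblast markers 3 were higher and 4 lower, with sums of 1804 to 1893 CPM in knockout and 1189 to 1244 CPM in control libraries. The higher sum rests on Cd34, at means of 766 and 223 CPM in knockout and control cells, and Dcn, at 321 and 26.1 CPM. Ly6a was also higher, and Pdgfra, Col15a1, Gsn and Mfap5 were lower. The part of these cell markers in the results on imprinted genes was not tested. In bulk RNA, fewer cells of a type and less RNA per cell cannot be told apart.

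Values are CPM, read counts normalised to library size with TMM factors, which are set by the bulk of genes, and errors are SD with n = 3 per group. Each log2 fold change is that of knockout over control and has its standard error (SE), and the adjusted p is that of edgeR's quasi-likelihood test, two-sided, corrected by Benjamini-Hochberg across the 13323 genes tested. A gene was called at an adjusted p below 0.05. Of the 9 genes, 7 had enough counts to be tested, reaching the filter level of 1.28 CPM in all 6 libraries, and H19 and Dlk1 had not. Mest, Plagl1 and Ndn were higher in the knockout and Meg3, Peg3 and Grb10 lower, while Cdkn1c did not pass. Across all tested genes 26.4% were called higher and 26.2% lower, together 52.6%, so 6 calls among 7 genes stand against a wide background of change. Knockout and control values were fully apart for those 6 genes, as for 57.8% of all tested genes. As a sum on the TMM scale the 9 genes differed little, though without overlap, with 428 to 439 CPM in knockout and 420 to 424 CPM in control libraries. Grb10 held most of that sum. By library totals the 9 genes made up 0.0450% to 0.0457% of counts in knockout and 0.0401% to 0.0406% in control libraries.

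Mest, the mesoderm-specific transcript, encodes a protein of the alpha/beta hydrolase fold and showed the largest difference of the 7. It had 9.58, 7.27 and 8.94 CPM in the knockout libraries and 2.91, 2.96 and 3.36 CPM in the control libraries. Every knockout library lay above every control library. The means were 8.60 ± 1.19 and 3.08 ± 0.248 CPM in knockout and control cells, a log2 fold change of 1.49 (SE 0.193, adjusted p = 9.90e-10). The level was low, with 54 to 90 counts per knockout and 23 to 25 per control library. By summed counts the ratio was 2.82, and its exact 95% interval, which covers counting error only, ran from 2.15 to 3.75. Of all tested genes, 92.4% had a smaller change in either direction.

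Plagl1 encodes a zinc finger transcription factor, also called ZAC1, that is known in mice to act on other imprinted genes. It had 47.2, 43.9 and 40.0 CPM in the knockout libraries and 21.1, 21.5 and 23.5 CPM in the control libraries. All knockout libraries lay above all control libraries, and the level was 1.98-fold higher. The log2 fold change was 0.99 (SE 0.0838, adjusted p = 3.65e-16). The interval of the count ratio ran from 1.78 to 2.20, and 86.7% of tested genes changed less.

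Ndn encodes necdin, a growth-suppressing protein of the MAGE family, and was among the most abundant of the 9. It had 70.5, 74.9 and 79.4 CPM in the knockout libraries and 63.7, 59.6 and 64.3 CPM in the control libraries. The lowest knockout library was above the highest control library, though by little. The log2 fold change was 0.27 (SE 0.0594, adjusted p = 1.18e-04), a 1.20-fold higher level, and 52.1% of tested genes changed less.

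Meg3, a maternally expressed long noncoding RNA, showed the largest decrease of the 7. It had 14.6, 11.2 and 11.8 CPM in the knockout libraries, against 22.9, 21.1 and 25.0 CPM in the control libraries. All knockout libraries lay below all control libraries. The means were 12.5 ± 1.79 and 23.0 ± 1.95 CPM in knockout and control cells, with a log2 fold change of -0.88 (SE 0.112, adjusted p = 7.21e-10). The counts were 83 to 119 per knockout and 164 to 197 per control library, and 84.7% of tested genes changed less.

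**Figure D1:**
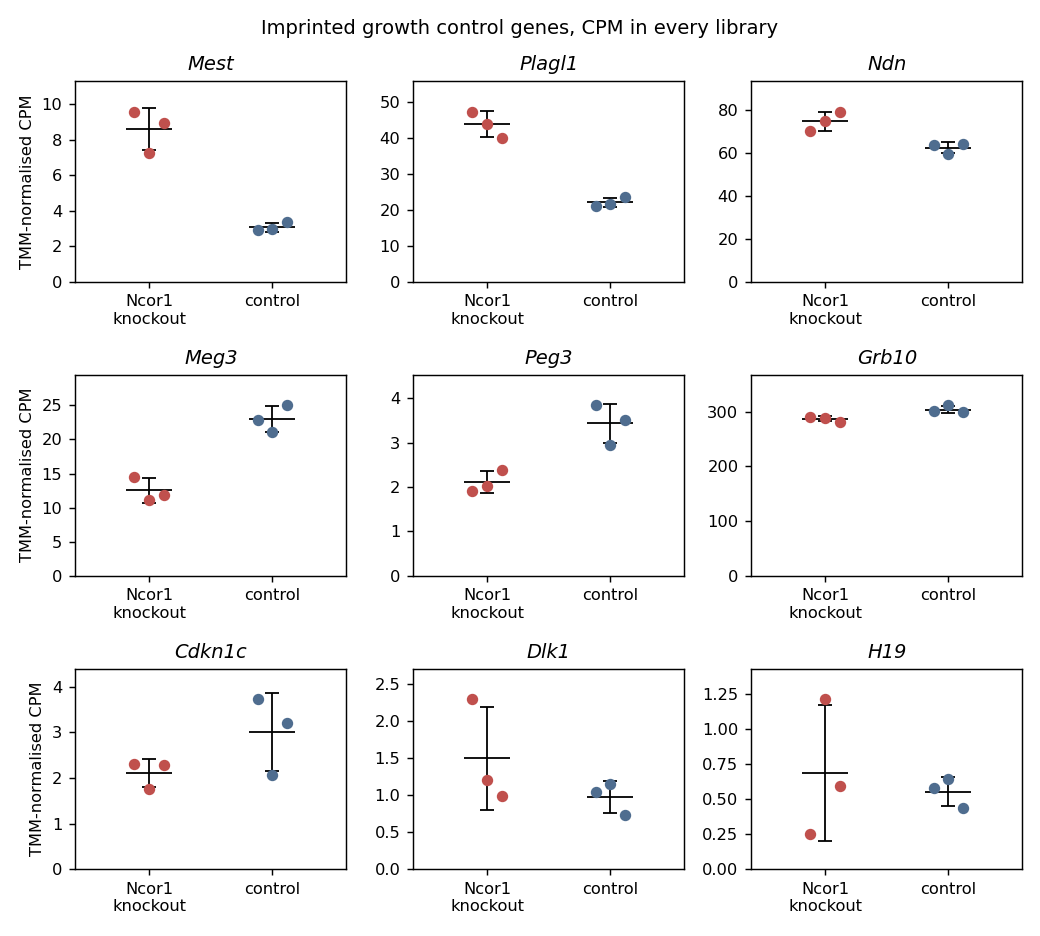
TMM-normalised CPM (y axis, from 0, a separate scale for each gene) of the 9 imprinted genes in the 3 Ncor1 knockout libraries, left, and the 3 control libraries, right. Points are libraries, the horizontal mark is the mean and the bar its SD. Mest at 7.27 to 9.58 against 2.91 to 3.36 CPM has the largest ratio of means among the 7 tested genes, and the points of Cdkn1c, Dlk1 and H19 overlap.

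Promoter windows were at hand for 7 of the 9 genes, from RefSeq on build GRCm38.p6, each reaching from 250 bases before to 50 bases after an annotated start. CpG sites, where imprints are written, are shown in capitals for the 3 genes with the largest changes, on the window with most CpG sites where a gene has several. All 3 lie on the plus strand. The Mest window is chr6:30737800-30738099, the Plagl1 window chr10:13090582-13090881 and the Meg3 window chr12:109540746-109541045.
Mest: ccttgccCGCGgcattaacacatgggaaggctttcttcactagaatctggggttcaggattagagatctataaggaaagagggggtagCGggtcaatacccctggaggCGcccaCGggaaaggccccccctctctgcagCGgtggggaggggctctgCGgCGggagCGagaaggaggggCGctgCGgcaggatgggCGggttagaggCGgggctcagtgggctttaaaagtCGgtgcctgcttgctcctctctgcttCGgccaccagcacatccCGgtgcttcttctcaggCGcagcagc
Plagl1: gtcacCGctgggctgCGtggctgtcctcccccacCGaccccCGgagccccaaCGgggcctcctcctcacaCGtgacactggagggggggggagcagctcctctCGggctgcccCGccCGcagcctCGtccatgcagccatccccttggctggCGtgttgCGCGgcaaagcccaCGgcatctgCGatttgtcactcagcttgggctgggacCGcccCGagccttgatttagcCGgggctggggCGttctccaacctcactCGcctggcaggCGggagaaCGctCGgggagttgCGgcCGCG
Meg3: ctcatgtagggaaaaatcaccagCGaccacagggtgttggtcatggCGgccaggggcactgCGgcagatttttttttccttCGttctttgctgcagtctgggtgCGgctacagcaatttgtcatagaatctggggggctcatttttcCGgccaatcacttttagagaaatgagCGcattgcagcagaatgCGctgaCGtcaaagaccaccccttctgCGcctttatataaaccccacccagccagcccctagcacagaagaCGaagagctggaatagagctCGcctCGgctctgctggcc
The Mest window held 17 CpG sites, the Plagl1 window 26 and the Meg3 window 13, against a median of 7 over 32851 windows of that length. Fewer CpG sites were found in 68.6%, 83.1% and 62.1% of all windows, in the same order of genes. The windows of Mest and Meg3 were picked for most CpG sites, which favours high values. The other windows held 8 and 17 for Mest and 1 for Meg3. One of the Grb10 windows, with 45, exceeded 98.1% of all windows, and the other held 9. The windows of Peg3 held 13, of Ndn 11 and of Dlk1 9.

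The 11 windows of the 7 genes were searched on both strands for 4 motifs. The PLAGL1 element GGGGCCCC occurred in the Peg3 window, starting 201 bases before the start site, and in 1.08% of all windows. The nuclear receptor hexamer AGGTCA occurred in the second Meg3 window, in reverse, and in 16.3% of all windows. The TATA box TATAAA occurred in the first Meg3 window at 25 bases before the start, with a reverse match at 29 bases before it that overlaps the first, and in 13.6% of all windows. The YY1 motif GCCATNTT occurred in none of the 11 windows and in 6.05% of all windows. These are matches of letters in short windows.

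Mest also carries a microRNA within the gene on the same strand, miR-335, and H19 is the precursor of miR-675. Their mature sequences are given because the host genes are members, with the seed, bases 2 to 8, in capitals.
miR-335-5p: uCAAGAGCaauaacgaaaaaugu
miR-335-3p: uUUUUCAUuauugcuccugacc
miR-675-5p: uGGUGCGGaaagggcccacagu
miR-675-3p: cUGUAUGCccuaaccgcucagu
No pair of them shares a seed. The count table lists Mir335 at 0 in all 6 libraries, while Mir675 had 0, 2 and 1 counts in the knockout and 1, 2 and 0 in the control libraries. These rows of a total RNA library do not measure mature microRNAs.

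Peg3 and Grb10 passed the test narrowly. Peg3 encodes a large zinc finger protein, and had 1.92, 2.02 and 2.38 CPM in the knockout libraries, against 3.84, 2.96 and 3.51 CPM in the control libraries. The groups did not overlap, but the values rest on 15 to 24 counts per knockout and 23 to 33 per control library. The log2 fold change was -0.69 (SE 0.259, adjusted p = 0.0210). It was -0.63, -0.66 and -0.59 (adjusted p = 0.0662, 0.0569 and 0.105) without knockout replicate 1, knockout replicate 2 and control replicate 1, which ended the call. With library totals it was -0.56 (adjusted p = 0.0611), with the DESeq2 test -0.70 (adjusted p = 0.174), and by log2(FPKM + 1) without a filter -0.16 (adjusted p = 0.220).

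Grb10 encodes an adaptor that binds the insulin and IGF1 receptors and restrains their signal. It had the highest level of the 9 per length, as given below by FPKM, and held 65.8% to 66.8% of their counts in knockout and 70.7% to 73.6% in control libraries. It had 290.3, 289 and 282 CPM in the knockout libraries and 301, 311 and 299 CPM in the control libraries. The groups were close without overlapping on the TMM scale. The log2 fold change of -0.083 (SE 0.0363, adjusted p = 0.0479) was smaller than the 0.13 by which library totals alone shift the median of all tested genes. With library totals the sign turned, to 0.050 (adjusted p = 0.245), as it did by FPKM in 3 fits with adjusted p between 0.289 and 0.365. Leaving out 1 library at a time ended the call in 5 of 6 cases, with adjusted p of 0.0631, 0.0945 and 0.196 without knockout replicates 1, 2 and 3, and 0.0715 and 0.175 without control replicates 1 and 2. Only 19.4% of tested genes had a smaller change.

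Cdkn1c, Dlk1 and H19 did not pass the test or were not tested, and all had few counts. Cdkn1c encodes p57, an inhibitor of cyclin-dependent kinases. It had 2.30, 1.75 and 2.29 CPM in the knockout libraries and 3.73, 2.06 and 3.22 CPM in the control libraries, and the groups overlapped. Its log2 fold change of -0.50 (SE 0.275, adjusted p = 0.124) did not pass, and the count ratio had an interval of 0.486 to 1.02. Without control replicate 2, the lowest of its group, the value was -0.71 (adjusted p = 0.0363). It was -0.29 (adjusted p = 0.496) without control replicate 1, the highest of its group.

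Dlk1 encodes a transmembrane protein with EGF repeats that is shed from preadipocytes. It had 18, 9 and 10 counts in the knockout libraries and 9, 9 and 5 in the control libraries, which is 2.30, 1.21 and 0.994 CPM in the knockout and 1.05, 1.16 and 0.731 CPM in the control libraries. H19, a long noncoding RNA abundant in fetal tissue, had 2, 9 and 6 counts in the knockout and 5, 5 and 3 in the control libraries. Both genes overlapped between the groups. Without the filter on low counts, over 23349 genes, the log2 fold changes were 0.56 (SE 0.411, adjusted p = 0.349) for Dlk1 and 0.26 (SE 0.577, adjusted p = 0.780) for H19. At this depth the ratio of H19 counts was only bounded between 0.548 and 2.68, and that of Dlk1 between 0.853 and 2.60, so a difference was not detectable.

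Levels of the 9 genes were set side by side by FPKM, which is per length and per library total. In knockout cells the order was Grb10 at 58.1 ± 0.671, Ndn at 47.4 ± 3.03, Plagl1 at 8.68 ± 0.678, Mest at 3.33 ± 0.463, Meg3 at 1.14 ± 0.162 and Cdkn1c at 1.05 ± 0.158 FPKM. Below them came Dlk1 at 0.335 ± 0.155, Peg3 at 0.332 ± 0.0406 and H19 at 0.275 ± 0.193 FPKM. In control cells the order was Grb10 at 56.1 ± 1.55, Ndn at 36.1 ± 1.29, Plagl1 at 3.99 ± 0.215, Meg3 at 1.92 ± 0.15, Cdkn1c at 1.36 ± 0.385 and Mest at 1.09 ± 0.0808 FPKM. Peg3 at 0.494 ± 0.0628, H19 at 0.202 ± 0.0396 and Dlk1 at 0.200 ± 0.0464 FPKM stood lowest. Mest was 4th in knockout cells and 6th in control cells. In knockout cells, neighbours in the order whose libraries overlapped were Meg3 and Cdkn1c, Dlk1 and Peg3, and Peg3 and H19. In control cells they were Cdkn1c and Mest, and H19 and Dlk1. By mean FPKM, Grb10 exceeded 95.1% and Ndn 93.0% of the 23349 genes with any count, while H19 exceeded 33.4%.

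Neighbours listed as expressed from opposite parental copies were compared within each library. In the Dlk1-Dio3 cluster, the ratio of Meg3 to Dlk1 by FPKM was 2.59, 3.78 and 4.88 in the knockout libraries and 8.97, 7.47 and 14.0 in the control libraries. The groups did not overlap. On the log2 scale it averaged 1.86 ± 0.458 in knockout and 3.29 ± 0.467 in control cells, a difference of -1.43. That difference joins the fall of Meg3 with mean Dlk1 levels of 0.335 FPKM in knockout and 0.200 FPKM in control cells. Dlk1 rests on 5 to 18 counts per library and overlapped between the groups, so its part in the ratio is uncertain. In the Mest cluster, the ratio of Mest to its neighbour Copg2, a coatomer subunit gene, was 0.232, 0.189 and 0.219 in the knockout libraries and 0.0730, 0.0674 and 0.0936 in the control libraries. It differed by 1.46 on the log2 scale, again without overlap. Copg2 itself had a log2 fold change of 0.011, so this ratio mostly repeats the change of Mest. The two-sided exact permutation test gave p = 0.1 for both ratios, the smallest value that 3 against 3 allows. Mest and Copg2 overlap on opposite strands in the annotation, and whether counting used strand is not given in the sources used here.

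**Figure D2:**
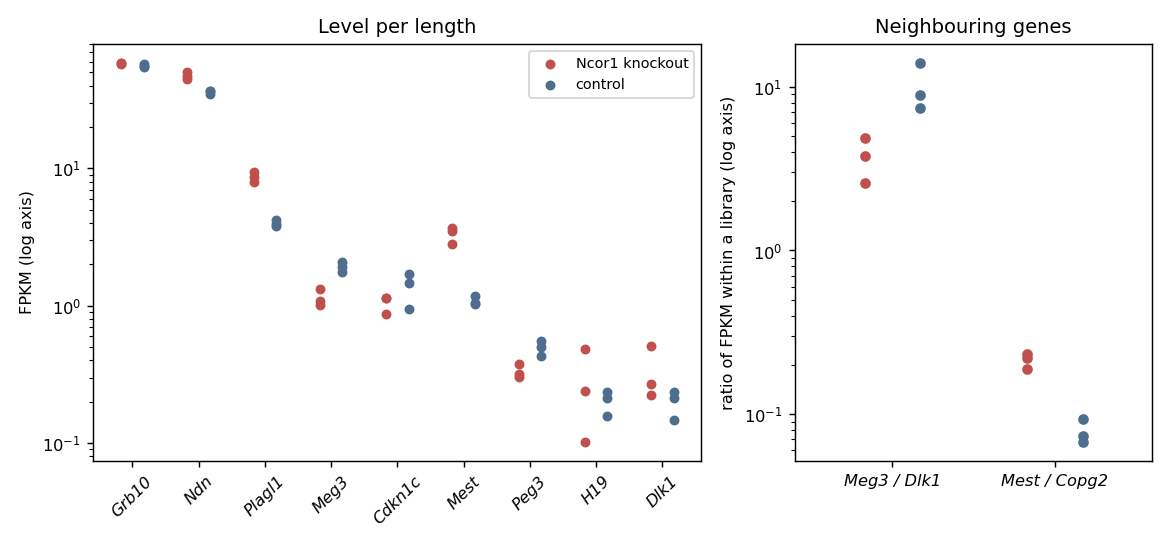
Left, FPKM (log axis) of the 9 genes in the order of the control means, with knockout libraries left of control libraries for each gene. Right, the ratio of FPKM of neighbouring genes within each library (log axis): Meg3 to Dlk1 was 2.59 to 4.88 in knockout and 7.47 to 14.0 in control libraries, and Mest to Copg2 was 0.189 to 0.232 in knockout and 0.0674 to 0.0936 in control libraries. Dlk1 rests on 5 to 18 counts per library.

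The ratio of H19 to Igf2 could not be formed, because Igf2, the paternally expressed growth factor beside H19, had 0 counts in 2 knockout libraries. Igf2 had 0, 1 and 0 counts in the knockout libraries and 16, 8 and 6 in the control libraries. By summed counts the level in control cells was 32.8-fold that in knockout cells, and the exact interval of this ratio ran from 5.44 to 1340. Igf2 was below the filter on low counts, and without that filter the edgeR adjusted p was 3.60e-07. That value rests on 1 knockout count and is not given as support. H19, its neighbour, showed no such separation, as given above. Dio3, at the far end of the Dlk1 cluster, encodes a deiodinase that inactivates thyroid hormone and is named after its counts were seen. It had 0 counts in each knockout library and 4, 4 and 5 in the control libraries, and the exact 95% interval of the control to knockout ratio of summed counts started at 3.33.

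A list of 55 other imprinted genes, in these and other clusters, was examined. Of its 31 tested genes 9 were higher, 8 lower and 14 did not pass. That is 54.8% called, near the 52.6% of all tested genes, and the median log2 fold change was -0.10 against -0.0039 for all tested genes. The list's calls include Magel2 and Asb4, which reached the filter through the knockout libraries. Within the clusters of the 9 genes, 26 others were listed and 12 tested, of which 2 were higher, 4 lower and 6 did not pass. In the Peg3 cluster, the zinc finger gene Zim1 had 1.92, 2.15 and 1.49 CPM in knockout and 6.05, 4.50 and 4.09 CPM in control libraries. It fell by 1.43 on the log2 scale (SE 0.252, adjusted p = 1.77e-06). Both tested genes of the cluster were thus called lower, but the call of Peg3 was lost in 6 of 16 alternatives. In the Dlk1-Dio3 cluster, Rian, a noncoding host of small nucleolar RNAs, had a log2 fold change of -0.48 (adjusted p = 0.234). Copg2 stood at 59.9 ± 2.26 CPM in knockout and 59.4 ± 5.93 CPM in control cells, with a log2 fold change of 0.011 (adjusted p = 0.907), and its sign turned without knockout replicate 1 or control replicate 3.

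The genes around Ndn did not move together. Magel2, another MAGE family gene, had 13, 10 and 20 counts in the knockout libraries and 1, 0 and 0 in the control libraries. By summed counts the ratio was 39.4, and its exact interval ran from 6.70 to 1590. It passed the filter on low counts through the knockout libraries alone, so its test is not given as support. Atp10a, which encodes a phospholipid flippase, fell to 39.8 ± 1.46 CPM in knockout cells, against 66.2 ± 0.871 CPM in control cells (log2 fold change -0.73, SE 0.0648, adjusted p = 1.87e-15). Peg12 at 0.27, the splicing gene Snrpn at -0.15 and the ubiquitin ligase gene Ube3a at -0.037 did not pass, and the sign of Ube3a turned with library totals, by FPKM and without knockout replicate 2.

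Around Cdkn1c, the Kcnq1 cluster had calls in both directions. The tetraspanin gene Cd81 had 545, 563 and 554 CPM in the knockout libraries and 727, 737 and 736 CPM in the control libraries. It fell by 0.40 on the log2 scale (SE 0.0322, adjusted p = 2.61e-17). Tssc4 fell by 0.50 (SE 0.0648, adjusted p = 1.22e-09). Kcnq1ot1, the paternally expressed noncoding RNA that runs against Kcnq1, was higher, with 9.56 ± 1.20 CPM in knockout and 6.86 ± 0.757 CPM in control cells (log2 fold change 0.46, SE 0.157, adjusted p = 0.0103). That call was lost with the DESeq2 test, by log2(FPKM + 1) without a filter, and without knockout or control replicate 1, with values of 0.054 to 0.60 and adjusted p up to 0.437 over 16 alternatives. The transporter gene Slc22a18 had -0.16 (adjusted p = 0.714), with the sign turned without control replicate 3 and by log2(FPKM + 0.1).

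Of imprinted genes outside these clusters, those with the smallest adjusted p are named. Dcn, which encodes the proteoglycan decorin, is imprinted in mouse placenta and is also on the fibroblast marker list. It rose to 321 ± 7.60 CPM in knockout cells, against 26.1 ± 2.61 CPM in control cells. Nnat, which encodes neuronatin, had 10.3, 7.94 and 8.74 CPM in knockout and 3.61, 4.63 and 4.68 CPM in control libraries (log2 fold change 1.07, SE 0.178). Asb4, an ankyrin repeat gene, had 30, 34 and 39 counts in the knockout libraries and 7, 7 and 15 in the control libraries, and reached the filter level in 3 knockout libraries and 1 control library. Lower were the noncoding RNA Peg13 at -0.77 (SE 0.0877), the lactonase gene Pon3 at -0.59 (SE 0.084) and Zrsr1 at -0.47 (SE 0.112). The adjusted p lay between 7.94e-55 for Dcn and 2.67e-04 for Zrsr1, and the calls of Dcn, Nnat, Peg13, Pon3 and Zrsr1 were kept in all 18 alternatives. Nnat, Zrsr1 and Kcnq1ot1 overlap genes on the opposite strand in the annotation, and Peg13 lies within Trappc9 on the same strand, so their counts are uncertain. Genes on the opposite strand also overlap Mest, Meg3, Ndn, Cdkn1c, Magel2, Cd81 and Tssc4, and Igf2 overlaps a gene on either strand, and the same limit applies to their counts. Summed endothelial and macrophage markers were higher in these knockout libraries, as given above.

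The 38 tested imprinted genes, members included, were split by the parental copy listed as expressed in mice. Counts per gene do not tell the copies apart, so the copy in use in these cells was not measured. The listed copy need not apply here, Dcn for example being imprinted in placenta. Calls of both signs were found on each side. Of 17 paternally expressed genes 8 were higher and 3 lower, with a median log2 fold change of 0.27. That is 64.7% called. The 8 include Magel2, which passed the filter on low counts through the knockout libraries alone. Of 21 maternally expressed genes 4 were higher and 8 lower, and their median was -0.10, with 57.1% called, against 52.6% of all tested genes. The 4 include Asb4, which reached the filter mainly through the knockout libraries. The difference between the sides was not tested. The maternal median was 0.029 with library totals and 0.016 to 0.044 by FPKM. The paternal median was -0.14 over 26 genes when no filter on low counts was used, -0.14 with the DESeq2 test and -0.0073 by FPKM without a filter. It was 0.11 without knockout replicate 2 and 0.11 without control replicate 1. Among the 9 genes themselves, 3 of 4 tested paternal genes were higher, and of 3 tested maternal genes 0 were higher by edgeR, by DESeq2 or at an unadjusted p under 0.05. With 26.4% of all tested genes called higher and 26.2% lower, counts over so few genes are only a description.

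**Figure D3:**
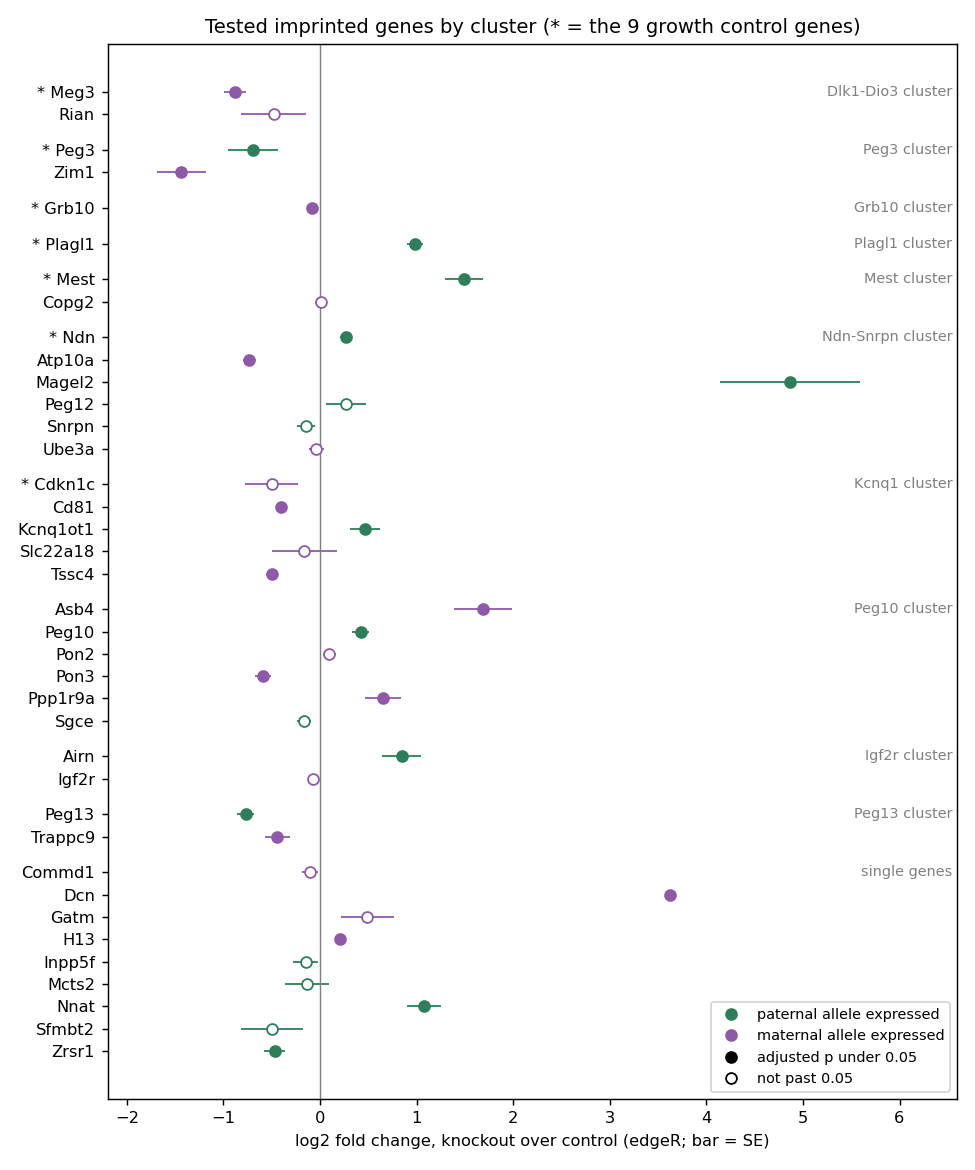
Log2 fold change, knockout over control, with its SE (x axis) for the 38 tested imprinted genes, grouped by cluster, with the growth control genes starred. Green marks genes listed as paternally expressed and purple those listed as maternally expressed, and filled points have an adjusted p below 0.05. Points lie on both sides of 0, with Magel2 at 4.87, a fitted value that rests on 1 control count and depends on the prior count, and Dcn at 3.62 far to the right.

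Genes that maintain or remove DNA methylation imprints were listed as well. Of 18 tested members of 22, 2 were higher, 6 lower and 10 did not pass, 44.4% called against 52.6% overall. This split depended on scaling, with 8 higher and 2 lower by library totals and 5 higher and 1 lower by log2(FPKM + 1). Higher were Hells, a chromatin remodeler needed for DNA methylation (log2 fold change 0.36, SE 0.0726), and Zfp57, a zinc finger protein that binds methylated imprinting control regions (0.32, SE 0.0808). Tet1, a dioxygenase that oxidises methylcytosine, had 4, 5 and 7 counts in the knockout libraries and 24, 21 and 19 in the control libraries. It passed the filter through the control libraries alone, and the exact interval of its knockout to control ratio of summed counts, 0.229, ran from 0.124 to 0.401. Cbx5, which encodes heterochromatin protein HP1 alpha, was lower by 0.28 (log2 fold change -0.28, SE 0.0372). Setdb1, a histone methyltransferase gene, had -0.27 (SE 0.0718), and its call was lost with library totals and by FPKM, with adjusted p up to 0.246. The maintenance methyltransferase Dnmt1 stood at 77.9 ± 3.32 CPM in knockout and 71.8 ± 0.665 CPM in control cells (adjusted p = 0.0703) and its partner Uhrf1 at 116 ± 2.80 and 109 ± 3.84 CPM in knockout and control cells (adjusted p = 0.1497). Both are named beyond the rule for this list.

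The genes most like Mest across the 6 libraries were sought by the Euclidean distance of mean-centred log2 CPM. The nearest were Clec14a at 0.152 and the transcription factor gene Gata3 at 0.192. Clec14a, a lectin-domain gene of endothelial cells, had 26.4, 21.9 and 23.6 CPM in the knockout libraries and 8.38, 8.88 and 9.36 CPM in the control libraries. Summed endothelial markers were likewise higher, at 7034 to 7191 CPM in knockout and 2040.3 to 2115.5 CPM in control libraries, and their part in the level of Mest was not tested. The distance mostly reflects a like difference between the groups, 1.44 for Clec14a and 1.45 for Gata3 on the log2 scale, and all share the same libraries.

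Across the alternatives for processing, Mest ranged from 1.05 to 1.63, Plagl1 from 0.93 to 1.12, Ndn from 0.22 to 0.40 and Meg3 from -0.99 to -0.45 on the log2 scale, each called in all 18. The values nearest 0 for Mest and Meg3 came from log2(FPKM + 1), a scale that understates changes of low genes.

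**Figure D4:**
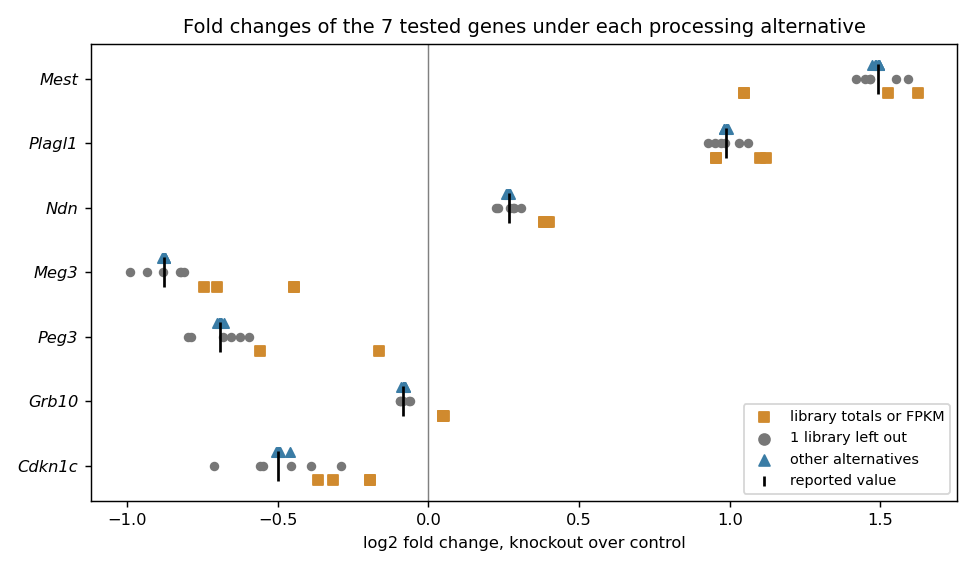
Log2 fold change, knockout over control (x axis), of the 7 tested genes under each processing alternative. Black bars are the reported values, grey circles leave out 1 library, squares use library totals or FPKM and triangles are the remaining alternatives. Mest, Plagl1, Ndn and Meg3 stay on their side of 0, and Grb10 lies at -0.094 to 0.051.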

How the data were processed

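The authors deposited a table of raw counts and a table of FPKM per gene symbol for 6 libraries. Per the submitters' processing notes, HISAT2 2.0 and mm9 were used. The counter, the annotation and the use of strand: not given in the sources used here. FPKM deposited by the authors equalled counts scaled by library total and a fixed length per gene. Of 23349 genes with any count, 13323 passed filterByExpr. edgeR 4.0.16 in R 4.3.3 was run with TMM factors, robust dispersions and no replicate term, and was tested on simulated data. The SE is the log2 fold change over the square root of F. Alternatives used other factors and filters, DESeq2 1.42.0, limma 3.58.1 on counts and FPKM, left-out libraries and a replicate block. The 9 genes, the other lists and the naming rule were chosen with earlier results of these data known. The naming rule took the 9 genes, tested neighbours in their clusters, and up to 3 called genes per direction, by smallest adjusted p, from the remaining imprinted and the maintenance lists. The 3 nearest genes to the most changed member needed at least 5 CPM, and 1 of them is not reported here. Library pairs differed by chi-square per degree of freedom of 1.38 to 1.84 within groups and 56.9 to 72.4 between groups. Counting error alone gives values near 1. No library was dropped as a duplicate, but these values cannot tell technical repeats from separate cultures. Whether the spread within groups is technical or biological was not tested. A floor of 3 counts was set, which is 0.313 to 0.421 CPM by library totals, without TMM factors. Annotation used for overlaps was of another build, so coordinates are given only for RefSeq windows on GRCm38.p6. The listed symbols Zfp264, Nespas and Adgre1 matched no gene name in the table.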

Additional observations from a re-analysis of the deposited data

How the results depend on the processing

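Mest, Plagl1, Ndn and Meg3 kept their direction and call in all 18 alternatives. Grb10 had log2 fold changes without a call of -0.081 with DESeq2 size factors (adjusted p = 0.0563), -0.078 with no filter (0.124), -0.083 at 1 CPM or more in 3 libraries (0.0509), -0.079 with the DESeq2 test (0.164) and -0.083 with no robust estimation (0.0554). It turned to 0.050 with library totals and to 0.050, 0.051 and 0.050 in the FPKM fits. Peg3 lost its call at -0.56 with library totals, -0.70 with DESeq2 and -0.16 by log2(FPKM + 1) without a filter, and was below the FPKM filter in the other FPKM fits. The number of growth control genes called lower was 1 with library totals, DESeq2 and the 3 FPKM fits, and 1 to 3 when a library was left out, with 1 without knockout replicates 1 or 2 or control replicate 1. Leaving out each library gave -0.80 to -0.59 for Peg3, -0.094 to -0.063 for Grb10 and -0.71 to -0.29 for Cdkn1c. For the maintenance list, calls higher and lower were 8 and 2 with library totals, 5 and 1 in both filtered FPKM fits and 5 and 2 without that filter, and 3 were lower with DESeq2. The cause of these shifts was not tested. Same-numbered knockout and control libraries correlated by 0.00398, 0.0159 and 0.0232 after removal of group means. Differently numbered ones correlated by -0.0239 to 0.00664. Each control library correlated best with the knockout library of its own number, while knockout library 1 correlated best with control library 2. Values this near 0 cannot tell whether the numbers pair the libraries. With the replicate number as a block, Grb10 was -0.082 (adjusted p = 0.0535) and 3509 genes were higher and 3486 lower, against 3512 and 3492. Depth limits H19, Dlk1, Cdkn1c and Peg3, with at most 33 counts per library.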

Other observations

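Gnas, which encodes the stimulatory G protein alpha subunit used by nearly every cell, had 1, 0 and 1 counts in the knockout libraries and 5, 1 and 1 in the control libraries. It was chosen after its values were seen, and in the annotation at hand it overlaps Nespas and Gm20721 on the other strand. Snurf, which shares its transcript with Snrpn, had 0 counts in each knockout library and 1, 0 and 0 in the control libraries, while Snrpn had 165 to 235 counts in knockout and 181 to 220 in control libraries. Airn, antisense to Igf2r, had 50, 55 and 66 counts in the knockout libraries and 26, 41 and 20 in the control libraries, beside 2530 to 3291 counts of Igf2r in the knockout and 2371 to 3020 in the control libraries. The share of such reads that belongs to overlapping genes was not tested.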
